A study of Bos taurus with 9 samples.

Results

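The 9 genes described here, *TAT*, *HPD*, *HGD*, *FAH*, *TDO2*, *SDS*, *GPT*, *GOT1* and *PRODH*, encode enzymes of hepatic amino acid breakdown. They were taken by symbol from a read count table of 28786 genes, and all 9 symbols were found in it. Liver biopsies of 9 lactating Holstein cows, a dairy breed, were sequenced as polyA RNA, with 1 biopsy and 1 library per cow. The cows belonged to 3 groups of n = 3: thermoneutrality (TN), heat stress (HS), and pair-fed (PF), in which cows stayed at thermoneutrality and were offered feed to match the intake of the HS cows. By design, HS and TN cows therefore differed in temperature and in feed intake, HS and PF cows in temperature, and PF and TN cows in feed intake. The average days in milk were reported to differ between the 3 groups as well. All 9 cows had been kept at thermoneutrality before allocation. The cows were drawn at random from a larger trial, and their ages were not given in the sources used here.

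The liver degrades most amino acids that are not used for protein, sending the nitrogen to urea and the carbon to glucose, ketone bodies or oxidation. Tyrosine is broken down in a chain of steps: *TAT* removes the amino group and is a classical glucocorticoid-responsive liver gene, *HPD* forms homogentisate, *HGD* opens its ring, and *FAH* releases fumarate and acetoacetate. *TDO2* opens the ring of tryptophan at the start of the kynurenine pathway, *SDS* turns serine into pyruvate, and *PRODH* starts proline oxidation in mitochondria. *GPT* and *GOT1* are the cytosolic alanine and aspartate aminotransferases, which exchange amino groups with glutamate and are widely known as serum markers of liver injury.

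The libraries held 16874444 to 22557047 counts. TN replicate 1 stood apart from the others in a principal component analysis, at -51.6 on the first component (35.8% of the variance) against -9.71 to 21.1 for the other cows. It also had the lowest summed level of 6 hepatocyte markers (*ALB*, *TTR*, *TF*, *APOB*, *SERPINA1* and *CPS1*), 13857 CPM (library-scaled counts, with TMM factors), against 50996 to 116035 CPM in the other cows, with HS replicate 3 highest. All 6 of these markers had counts in every cow. Their sums, 13857 CPM or more, were far above those of the 5 skeletal muscle markers, at most 0.102 CPM. These levels bore out the tissue label. The mitochondrial genes took 13.6% to 22.2% of the counts in TN, 6.90% to 7.79% in PF and 3.84% to 5.68% in HS cows. Fits without the mitochondrial genes and fits with each cow left out in turn are given in the closing section. Beyond these fits, the part of these differences in the results was not tested. In bulk tissue, fewer cells of a type and less RNA per cell cannot be told apart.

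None of the 9 enzymes passed the test in any comparison of the groups. Each pair of groups was fitted with edgeR over all genes, and calls needed both FDR below 0.1 and more than a 1.5-fold difference. Between HS and TN cows, 0 of the 9 genes were called, where 0.0892% of 14582 genes were. One of the 9, *GOT1*, had an unadjusted p under 0.05, where 9.36% of all genes did. Between HS and PF cows, 0 of the 9 were called (0.0276% of 14510 genes) and 0 had an unadjusted p under 0.05 (5.32%). Between PF and TN cows these numbers were also 0 (0% of 14580 genes called, 6.88% with an unadjusted p under 0.05). A test of the 3 groups together called 0 of the 9 and 0.0464% of 15073 genes. DESeq2 called 0 of the 9 in each pair, where it called 1.75% of genes in HS against TN, 0.771% in HS against PF and 0.555% in PF against TN cows, and *GOT1* in HS against TN cows was again the 1 gene with an unadjusted p under 0.05. With 1 cow left out in turn, no fit called any of the 9. All 9 passed the filter on low counts in all 3 comparisons.

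Of the 9 enzymes, *PRODH* had the widest range, 7.37 to 47.9 CPM over the 9 cows, or 6.49-fold. For the other 8 genes, the highest cow exceeded the lowest by between 2.02-fold in *HPD* and 4.06-fold in *GPT*. With 0.5 CPM added to each level, the ranges of *PRODH*, *HPD* and *GPT* were 6.15-fold, 2.01-fold and 3.28-fold. So measured, they were wider than in 94.6%, 30.3% and 73.4% of all genes tested.

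**Figure D1:**
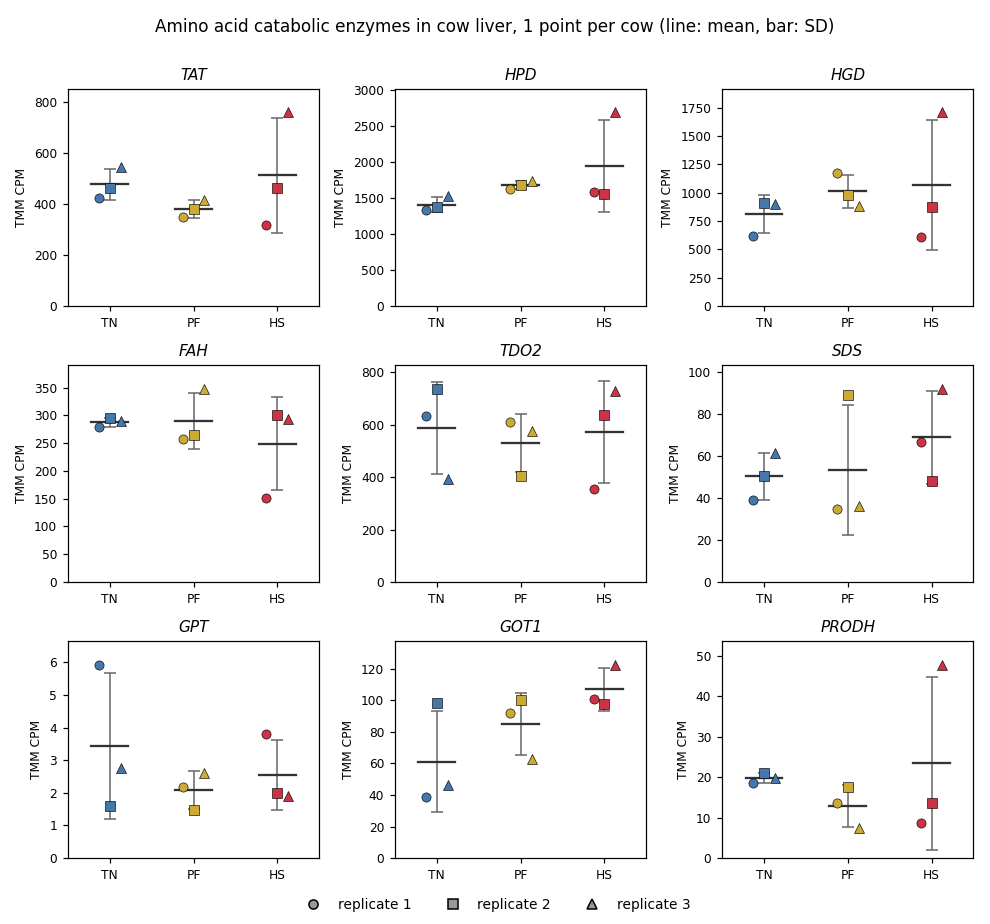
Level of each of the 9 enzymes (vertical axis, TMM-normalized CPM from 0) in each of the 9 cows, by group (horizontal axis), with the mean as a line and the SD as a bar. The HS cows of *TAT* and *HGD* hold both the lowest and the highest value of the 9 cows, and HS replicate 3 is the highest cow in 6 of the 9 genes.

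*TAT* was at 423, 461 and 544 CPM in TN cows, at 346, 379 and 414 CPM in PF cows and at 315, 463 and 757 CPM in HS cows. Every PF cow was below every TN cow, while the HS cows included both the lowest and the highest of all 9. The means were 476 ± 61.6 CPM in TN, 379.9 ± 33.9 CPM in PF and 512 ± 225 CPM in HS cows (SD, n = 3 each). The log2 fold change of PF over TN cows was -0.34 (SE 0.31, 95% interval -1.01 to 0.34, FDR = 0.782, edgeR). For HS over TN it was 0.079 (SE 0.39, FDR = 0.956, edgeR), and without HS replicate 3 it was -0.32. For HS over PF it was 0.42 (SE 0.34, FDR = 1.00, edgeR), and 0.029 without HS replicate 3. In the later ARS-UCD2.0 annotation the gene overlaps a small nuclear RNA gene.

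*HPD*, the dioxygenase of the next step, was at 1335, 1373 and 1523 CPM in TN cows. PF cows had 1622, 1681 and 1740.2 CPM, and HS cows had 1587, 1562 and 2691 CPM. All PF and all HS cows were above all TN cows, although the lowest HS cow was close to the highest TN cow. The mean was 1410.4 ± 98.9 CPM in TN, 1681 ± 59.3 CPM in PF and 1947 ± 645 CPM in HS cows (SD, n = 3 each). The log2 fold change was 0.44 for HS over TN (SE 0.41, 95% interval -0.48 to 1.35, FDR = 0.721, edgeR) and 0.24 for PF over TN (SE 0.33, 95% interval -0.49 to 0.98, FDR = 0.849, edgeR). Without HS replicate 3, at 2691 CPM, the value for HS over TN was 0.13. Between HS and PF cows the log2 fold change was 0.20 (SE 0.32, FDR = 1.00, edgeR), and the groups overlapped. A long noncoding RNA gene overlaps *HPD* in ARS-UCD2.0, and the strand setting of the counting was not given in the sources used here.

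*HGD* was at 614, 908 and 902 CPM in TN cows and at 1170.4, 981 and 887 CPM in PF cows. HS cows had 613, 877 and 1709 CPM, again the lowest and the highest values of the 9. Fitted log2 fold changes were 0.38 for HS over TN (SE 0.45, FDR = 0.782, edgeR), 0.32 for PF over TN (SE 0.34, FDR = 0.810, edgeR) and 0.064 for HS over PF (SE 0.38, FDR = 1.00, edgeR). Without HS replicate 3 the value of HS over TN was -0.14 and that of HS over PF was -0.45, so both directions turned without that cow.

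*FAH*, which completes tyrosine breakdown, was at 279, 295 and 289 CPM in TN cows, a range of 1.06-fold around a mean of 288 ± 7.79 CPM (SD, n = 3). PF cows had 258, 264 and 348 CPM. HS cows had 152, 301 and 294 CPM, and HS replicate 1 was thus below all other cows. In the fits, log2 fold changes were -0.24 for HS over TN (SE 0.33, FDR = 0.817, edgeR), -0.23 for HS over PF (SE 0.31, FDR = 1.00, edgeR) and 0.0027 for PF over TN (SE 0.30, 95% interval -0.66 to 0.66, FDR = 0.998, edgeR). Without HS replicate 1 the values of HS over TN and over PF were 0.024 and 0.018.

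The steps of tyrosine breakdown were also compared within each library, as the ratio of the raw counts of 2 genes, into which no normalization between libraries enters. This comparison was chosen after the levels were seen and is given as a description. The ratio of *HPD* to *TAT* counts was 3.16, 2.98 and 2.80 in TN cows, 4.68, 4.43 and 4.202 in PF cows, and 5.03, 3.38 and 3.55 in HS cows. Each PF and each HS cow thus had more *HPD* counts per *TAT* count than each TN cow. For *HGD* to *HPD* the ratios ran from 0.460 to 0.661 in TN, from 0.510 to 0.722 in PF and from 0.386 to 0.635 in HS cows. For *FAH* to *HGD* they ran from 0.321 to 0.455, from 0.221 to 0.393 and from 0.172 to 0.343, and the groups overlapped in both.

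**Figure D2:**
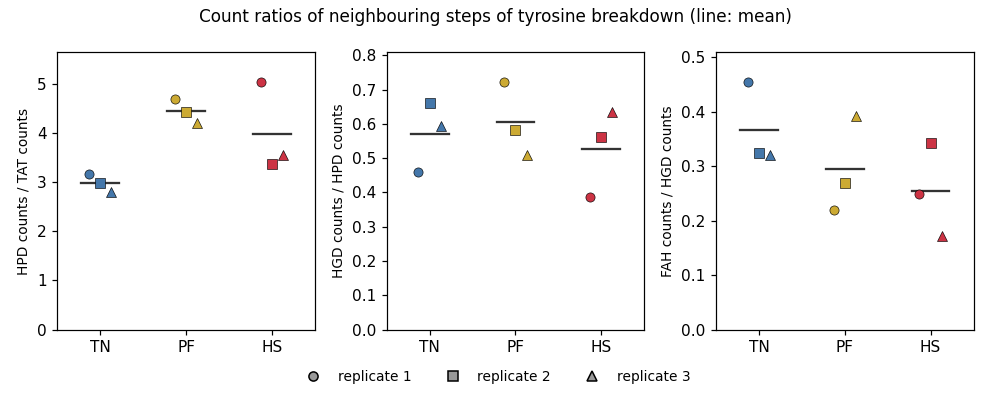
Ratio of raw counts between genes of tyrosine breakdown, not all of them of neighbouring steps (vertical axes, from 0), in each cow, by group, with the mean as a line. The *HPD* to *TAT* ratio is at most 3.16 in the TN cows and at least 3.38 in the other cows, while the other 2 ratios overlap between all groups.

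Over all 36 pairs of the 9 genes, the count ratio did not overlap between PF and TN cows in 7 pairs. These were *TAT* with *HPD*, *HGD* and *FAH*, and *PRODH* with *HPD*, *HGD*, *FAH* and *GOT1*, so *TAT* or *PRODH* was the lower partner in PF cows in each. That is 19.4% of pairs, where 17% of the 2211 pairs of the other amino acid catabolic genes did not overlap. Between HS and TN cows it was 2 pairs, *HPD* with *TAT* and *GOT1* with *TDO2*, or 5.56% of pairs against 17.3%. Between HS and PF cows it was 1 pair, *TAT* with *FAH*, or 2.78% against 21.8%. The pairs share genes and cows and are not independent, and the shares for PF and TN were close to each other.

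*TDO2*, the entry to the kynurenine pathway, was at 633, 737 and 393 CPM in TN cows, at 609, 404 and 576 CPM in PF cows and at 355, 638 and 727 CPM in HS cows. The 3 groups overlapped, and the range was narrower in PF cows (1.51-fold) than in TN (1.87-fold) and HS cows (2.05-fold). The means were 588 ± 176 CPM in TN, 529.5 ± 110.3 CPM in PF and 573 ± 194 CPM in HS cows (SD, n = 3 each). The log2 fold changes were -0.068 for HS over TN (SE 0.41, FDR = 0.964, edgeR), 0.10 for HS over PF (SE 0.33, FDR = 1.00, edgeR) and -0.16 for PF over TN (SE 0.36, FDR = 0.914, edgeR). The interval for HS over TN ran from -0.98 to 0.84, so a change of up to nearly 2-fold either way was within the error.

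*SDS*, which feeds serine carbon to pyruvate, was at 39.3, 50.3 and 61.5 CPM in TN cows and at 66.5, 48.1 and 92.1 CPM in HS cows. PF cows had 34.6, 88.9 and 36.4 CPM, so PF replicate 2 reached the level of the highest HS cow while the other 2 PF cows were the lowest of all. The log2 fold change was 0.43 for HS over TN (SE 0.28, 95% interval -0.21 to 1.07, FDR = 0.626, edgeR) and 0.36 for HS over PF (SE 0.38, FDR = 1.00, edgeR). For PF over TN it was 0.073 (SE 0.37, FDR = 0.959, edgeR), and -0.51 without PF replicate 2. For HS over PF the value was 0.95 without that cow.

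*GPT*, the alanine aminotransferase, rested on the fewest reads of the 9 genes, 26 to 135 counts per library. It was at 5.93, 1.61 and 2.74 CPM in TN, at 2.17, 1.46 and 2.61 CPM in PF and at 3.79, 1.99 and 1.89 CPM in HS cows. The highest value was in TN replicate 1, the cow with the lowest hepatocyte marker sum. Log2 fold changes were -0.47 for HS over TN (SE 0.56, FDR = 0.782, edgeR), -0.74 for PF over TN (SE 0.56, FDR = 0.750, edgeR) and 0.30 for HS over PF (SE 0.49, FDR = 1.00, edgeR). Without TN replicate 1 the value of HS over TN was 0.24 and that of PF over TN was -0.061.

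*GOT1*, the aspartate aminotransferase that also serves the malate-aspartate shuttle, was at 38.9, 98.3 and 46.6 CPM in TN cows. PF cows had 92.2, 100.05 and 63.1 CPM, and HS cows had 101, 97.7 and 123 CPM. HS cows were all near or above the highest cows of the other groups, and only TN replicate 2, at 98.3 CPM, kept the HS and TN groups from separating. The lowest value was in TN replicate 1, the cow with the lowest hepatocyte marker sum. The means were 61.2 ± 32.3 CPM in TN, 85.1 ± 19.5 CPM in PF and 107 ± 13.6 CPM in HS cows (SD, n = 3 each). The log2 fold change of HS over TN was 0.79, or 1.73-fold (SE 0.34, 95% interval 0.016 to 1.56), which did not pass after adjustment over all genes (FDR = 0.522 with edgeR, FDR = 0.373 with DESeq2). With 1 cow left out it ranged from 0.56 without TN replicate 1 to 1.30 without TN replicate 2, with FDRs from 0.188 to 0.903. For PF over TN the log2 fold change was 0.47 (SE 0.36, FDR = 0.751, edgeR) and for HS over PF 0.32 (SE 0.25, 95% interval -0.24 to 0.88, FDR = 1.00, edgeR).

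*PRODH*, the proline dehydrogenase, was at 18.6, 20.9 and 19.8 CPM in TN cows, a narrow range of 1.124-fold. PF cows had 13.7, 17.6 and 7.37 CPM, all below all TN cows. HS cows had 8.69, 13.7 and 47.9 CPM, so that 2 were also below all TN cows and HS replicate 3 was far above every other cow. The means were 19.8 ± 1.16 CPM in TN, 12.9 ± 5.17 CPM in PF and 23.4 ± 21.3 CPM in HS cows (SD, n = 3 each). The log2 fold change of PF over TN was -0.63 (SE 0.32, 95% interval -1.32 to 0.066, FDR = 0.709, edgeR), and it ranged from -0.91 to -0.33 with 1 cow left out. For HS over TN it was 0.21 (SE 0.52, FDR = 0.906, edgeR), and -0.85 without HS replicate 3. For HS over PF it was 0.84 (SE 0.55, FDR = 1.00, edgeR), and -0.21 without that cow.

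HS replicate 3 was the highest of the 9 cows in *TAT*, *HPD*, *HGD*, *SDS*, *GOT1* and *PRODH*, 6 of the 9 genes, and was the highest in 13% of the 15073 genes tested and in 25 of 67 other amino acid catabolic genes. HS replicate 1 was the lowest cow in *TAT*, *HGD*, *FAH* and *TDO2*, 4 of the 9. It was the lowest in 5.63% of all genes and in 5 of the 67 other amino acid catabolic genes. The HS group had the widest range of the 3 groups in 6 of the 9 genes, where it did so in 23.2% of all genes tested. The median ratio of the highest to the lowest cow was 2.01 in HS, 1.51 in PF and 1.48 in TN cows over the 9 genes, against 1.499, 1.59 and 1.63 over all genes. The ranges and ratios over all genes were taken with 0.5 CPM added to each level, and those of the 9 genes without it. They are thus not the same measure, as the added 0.5 CPM narrows the ratios of genes at low levels. These counts were made after the values were seen. In HS replicates 1 to 3 the hepatocyte marker sums were 50996, 52669.8 and 116035 CPM, and those of bile duct markers were 87.0, 26.8 and 17.3 CPM. Macrophage sums were 1656, 1345 and 2119 CPM, and lymphocyte sums were 85.2, 71.7 and 84.1 CPM. Stellate and fibroblast sums were 493, 234 and 205 CPM, and endothelial sums were 484, 274 and 319 CPM. Their part in the spread of the enzymes was not tested.

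**Figure D3:**
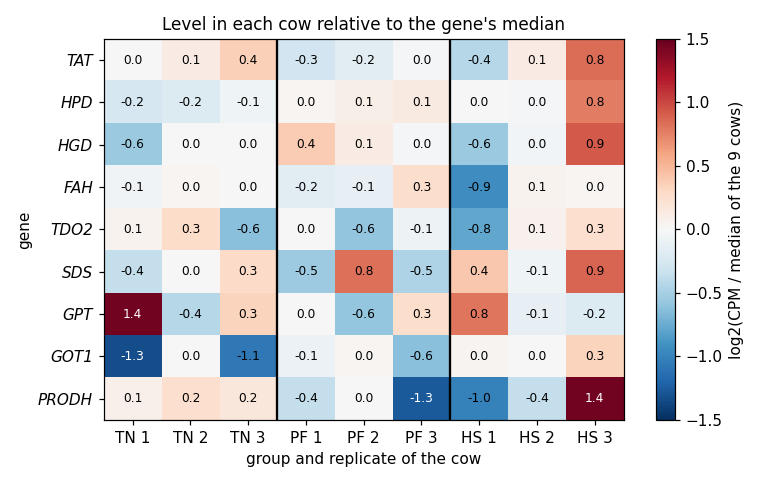
Level of each gene (rows) in each cow (columns, by group and replicate) as log2 of its CPM over the gene's median of the 9 cows. HS replicate 3 is above the median in 8 of the 9 genes, and 4 genes have their lowest value in HS replicate 1.

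Of the 15073 genes, those whose log2 CPM followed each enzyme most closely over the 9 libraries were also read out. These were *SOD3* and *WDTC1* for *TAT* (r = 0.91 each), *LARS2* and *IQCG* for *HPD* (r = 0.94 and 0.92), *NAT1* for *HGD* (r = 0.97), LOC104969299 for *FAH* (r = 0.90) and *IL20RA* and *CLDN2* for *TDO2* (r = 0.95 each). They were *TUBA8* and *DTNB* for *SDS* (r = 0.93 each), *PCNX1* and LOC112443325 for *GPT* (r = 0.97 and 0.94), *SMU1* and *NOP16* for *GOT1* (r = 0.96 each), and *CLN8* and LOC112441473 for *PRODH* (r = 0.92 and 0.91). The points are cows that share groups, libraries and single extreme cows, and each r is among the largest over 15073 genes, so these values only describe which patterns were most alike. The r of *GPT* with each of the 8 other enzymes was negative, from -0.71 with *GOT1* to -0.18 with *TDO2*. These r were not tested, and *GPT* was highest in TN replicate 1, where *HPD* and *GOT1* were lowest.

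The sizes that these libraries left possible were wide. Between HS and TN cows the log2 fold changes of the 9 genes ran from -0.47 to 0.79, with SEs from 0.28 to 0.56, and 3 of the 9 intervals lay wholly within a 2-fold change either way. Between HS and PF cows the fold changes ran from -0.23 to 0.84 and 5 of the 9 intervals lay within 2-fold. Between PF and TN cows they ran from -0.74 to 0.47 and 4 of the 9 did. The groups did not overlap in 1 of the 9 genes for HS and TN (*HPD*), where this held for 16.1% of all genes, in 0 between HS and PF cows (10.6%), and in 3 between PF and TN cows (*TAT* and *PRODH* lower and *HPD* higher in PF cows), where it held for 13.3%. An exact permutation test of 3 cows against 3 cannot go below p = 0.1.

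**Figure D4:**
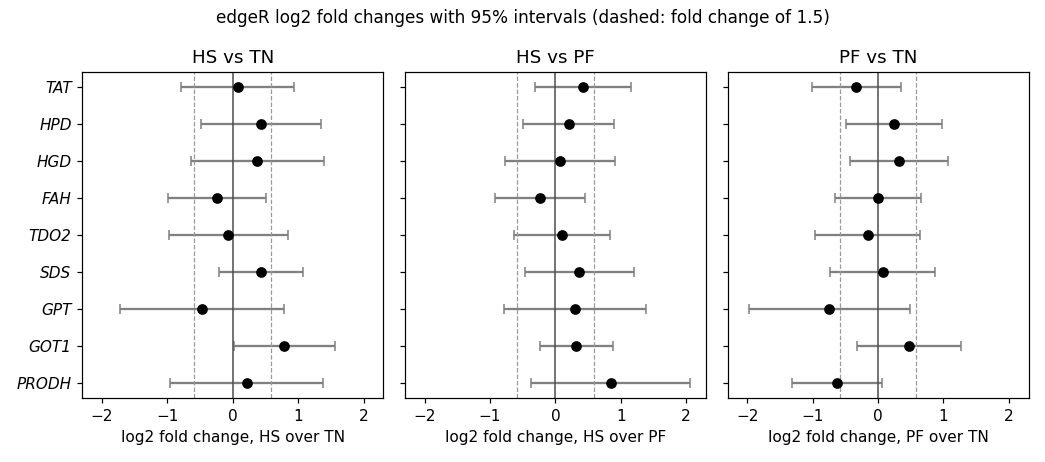
Log2 fold change (horizontal axes) of each of the 9 genes in the 3 comparisons of the groups, with 95% intervals from the edgeR fits and dashed lines at a fold change of 1.5. Only the interval of *GOT1* for HS over TN, 0.016 to 1.56, leaves out 0, before any adjustment for the number of genes.

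The HS and PF comparisons with TN share the TN cows, and the median log2 fold change of the 9 genes was 0.21 for HS over TN and 0.0027 for PF over TN. Over all genes tested the medians were -0.0082 and -0.014. For HS over PF the median was 0.30, with 8 of the 9 values above 0 and *FAH* below, against 0.0069 over all genes. Without HS replicate 3, 4 of these 8 were below 0: *HPD*, *HGD*, *TDO2* and *PRODH*.

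A list of 67 other amino acid catabolic genes was read from the same fits, and all 67 passed the filter on low counts. By edgeR, 0 of the 67 were called in each of the 3 comparisons, with 7 at an unadjusted p under 0.05 for HS against TN, 8 for HS against PF and 7 for PF against TN. Over all genes, 9.36%, 5.32% and 6.88% had such a p. DESeq2 called 3, 4 and 0 of the 67, against 1.75%, 0.771% and 0.555% of all genes. The median log2 fold change of the list was 0.21 for HS over TN, -0.031 for HS over PF and 0.21 for PF over TN. Of the 24 genes of branched-chain amino acid breakdown, 19 were above 0 for HS over TN, 4 for HS over PF and 20 for PF over TN, with median log2 fold changes of 0.23, -0.18 and 0.35. Over all genes tested, 7186 of 14582, 7392 of 14510 and 7117 of 14580 were above 0. Of the 6 hepatocyte markers, 5, 2 and 6 were above 0, with medians of 0.61, -0.10 and 0.53, and TN replicate 1, with the lowest sum of these markers, was the lowest cow in 34 of the 67 listed genes. Their part in the directions of the list was not tested. The 4 listed genes of phenylalanine and tyrosine breakdown were above 0 in 4, 3 and 4 cases, with medians of 0.53, 0.12 and 0.35. For the 15 genes of tryptophan and lysine breakdown the numbers were 9, 9 and 7, with medians of 0.24, 0.082 and -0.20. The 3 genes of proline and ornithine breakdown gave 3, 3 and 2, with medians of 0.53, 0.60 and 0.033, and the 4 of histidine breakdown gave 2, 2 and 0, with medians of -0.22, 0.052 and -0.47. Medians of the other classes (7 genes of serine, threonine and glycine, 5 of glutamate, glutamine, alanine and aspartate, and 5 of sulfur and other amino acids) lay between -0.062 and 0.25. No gene of the list passed the edgeR test.

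**Figure D5:**
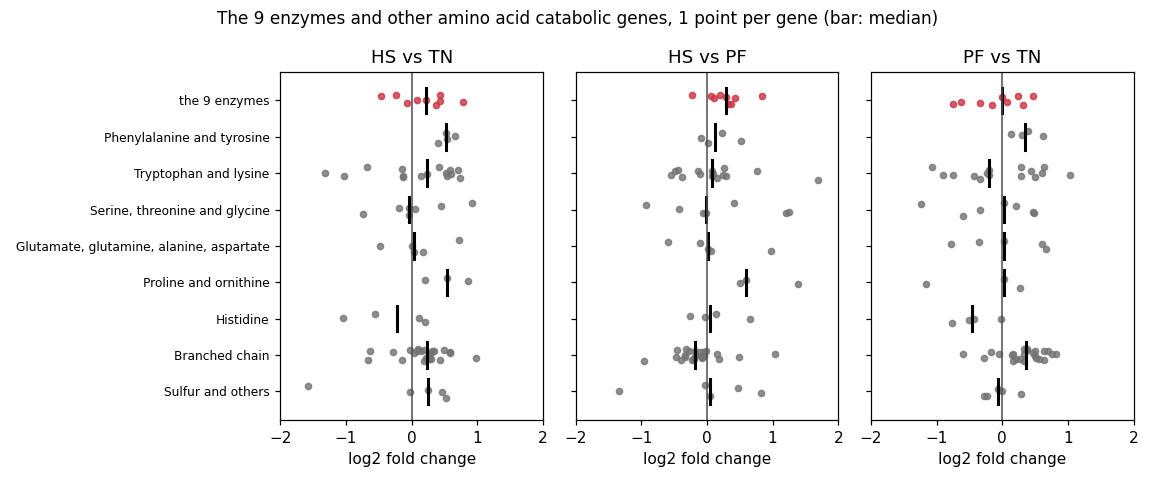
Log2 fold changes (horizontal axes) of the 9 enzymes and of the 67 other amino acid catabolic genes by pathway (rows), 1 point per gene with the median as a bar, in the 3 comparisons. The branched-chain median is 0.35 for PF over TN and -0.18 for HS over PF.

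Among the tryptophan genes, *IDO1*, which catalyses the same ring opening as *TDO2*, mainly outside hepatocytes, had 11.6 ± 1.35 CPM under HS against 23.1 ± 4.81 CPM under TN (SD, n = 3 each), without overlap. Its log2 fold change of HS over TN was -1.03 (SE 0.24, FDR = 0.280 with edgeR), and DESeq2 called it (FDR = 0.0922). PF cows had 12.4 ± 2.38 CPM, also all below the TN cows, with -0.90 for PF over TN (SE 0.28, FDR = 0.693, edgeR). For HS over PF the log2 fold change of *IDO1* was -0.11 (SE 0.25). *KYAT3*, a kynurenine aminotransferase, had 28.1 ± 3.33 CPM under HS against 44.2 ± 3.53 CPM under TN, with -0.68 on the log2 scale (SE 0.20, FDR = 0.392, edgeR). *KYAT1*, which shares that activity, was at -1.32 for HS over TN (FDR = 0.446 with edgeR, FDR = 0.0631 with DESeq2). *CSAD*, an enzyme of taurine synthesis from cysteine, was at -1.58 (FDR = 0.392 with edgeR, FDR = 0.0279 with DESeq2). *KYAT1*, this value of *CSAD* and the PF values of *IDO1* were chosen after their values were seen. *ACADSB*, a dehydrogenase of isoleucine breakdown, had 14.1 ± 2.32 CPM under HS against 7.02 ± 1.16 CPM under TN (log2 fold change 0.98, SE 0.25, FDR = 0.325, edgeR). *OAT*, the ornithine aminotransferase, was at 0.86 (SE 0.32, FDR = 0.473, edgeR).

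Between HS and PF cows, *GLDC*, the decarboxylase of the glycine cleavage system, had 158 ± 16.3 CPM under HS against 68.4 ± 18.5 CPM under PF (SD, n = 3 each). On the log2 scale the difference was 1.202 (SE 0.26), with FDR = 0.315 by edgeR and FDR = 0.0029 by DESeq2. *GLS2*, the liver glutaminase, had 107 ± 14.7 CPM under HS against 54.2 ± 7.24 CPM under PF, with 0.98 on the log2 scale (SE 0.23, FDR = 0.350 with edgeR, FDR = 0.0200 with DESeq2). *ACMSD*, which diverts tryptophan carbon from NAD synthesis and was named after its values were seen, was at 1.69 (FDR = 0.563 with edgeR, FDR = 0.0183 with DESeq2), and at 0.99 without HS replicate 3 (FDR = 0.823, edgeR). *ACAD8*, a dehydrogenase of valine breakdown, had 173 ± 16.5 CPM under HS against 334 ± 97.1 CPM under PF (log2 fold change -0.96, SE 0.29, FDR = 0.625 with edgeR, FDR = 0.0691 with DESeq2). TN cows had 159 ± 64.9 CPM of *GLDC* and 92.5 ± 35.4 CPM of *GLS2*. For HS over TN the edgeR log2 fold changes were -0.044 for *GLDC* (SE 0.36) and 0.18 for *GLS2* (SE 0.33). Those of *ACMSD* and *ACAD8* were 0.60 (SE 0.46) and -0.63 (SE 0.26). These values for TN cows were added after they were seen. *CSAD* was at -1.34 (SE 0.76, FDR = 0.986, edgeR), and at 0.49 without PF replicate 2.

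Between PF and TN cows, *GLDC* was at -1.23 (SE 0.38, FDR = 0.693, edgeR) and *ACMSD* at -1.08 (SE 0.32, FDR = 0.693, edgeR). *KYNU*, the kynureninase, had 56.4 ± 8.96 CPM under PF against 36.3 ± 8.63 CPM under TN (log2 fold change 0.63, SE 0.27, FDR = 0.708, edgeR). *ALDH6A1*, of valine breakdown, had 422 ± 123 CPM and 239 ± 59.3 CPM (0.82, SE 0.35, FDR = 0.708, edgeR). In ARS-UCD2.0, *KYAT3*, *OAT*, *ACADSB*, *GLS2*, *ALDH6A1* and *CSAD* each overlap another gene, with whose reads theirs may be mixed.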

How the data were processed

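Liver RNA of 9 cows was sequenced as polyA libraries. The deposited file holds raw read counts per gene, 1 column per cow. For these counts the authors' processing notes name fastp 0.23.2, STAR 2.7.9a and featureCounts 2.0.3. The strand and multimapping settings are not given in the sources used here. The table lists 28786 symbols, 21008 of them with a count, and 24366 matched RefSeq.

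Groups came from the sample labels. Each pair of groups (6 libraries) was fitted in R 4.3.3 with edgeR 4.0.16 (filterByExpr, TMM factors, quasi-likelihood F test, Benjamini-Hochberg FDR over all genes tested). Calls needed FDR below 0.1 and more than a 1.5-fold difference. A fit of all 9 libraries tested the 3 groups together. SEs are the log2 fold change over the root of F, and intervals are 95%. For r, log2(CPM + 0.5) was used, and 0.5 CPM was also added to each level for ranges over all genes. Totals were 16874444 to 22557047 counts. Feed of PF cows was matched to HS cows, but which cow was matched to which is not given in the sources used here. P-values set the differences between groups against the spread between these cows. The alternatives were DESeq2 1.42.0, RLE size factors, no filter on low counts, mitochondrial genes left out, a replicate block, all 9 libraries in 1 fit, and each cow left out in turn. Whether groups overlap under RLE factors and without mitochondrial genes was added after the data were seen. The code was tested on simulated data.

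The 9 enzymes, the 67 pathway genes and the marker lists were chosen with earlier results of these data known. Named were all 9 enzymes, the 2 genes with the highest r to each (for *HGD* and *FAH*, 1 of the 2 is not reported here), and, of the pathway genes, those called and the 2 with the smallest p in each direction of each comparison. Exceptions are stated where they occur.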

Additional observations from a re-analysis of the deposited data

How the results depend on the processing

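No setting called any of the 9 enzymes, and the lowest FDR was 0.188 over 324 values of 27 comparisons. Of these values 296 kept their direction and 28 reversed, 22 of them on leaving out a cow. The number of all genes called moved most. DESeq2 gave 270 in HS against TN, 122 in HS against PF, 91 in PF against TN and 291 for the 3 groups, and no filter on low counts gave 124, 98, 136 and 212. RLE size factors and leaving out mitochondrial genes each gave 8 in HS against PF, and all 9 libraries in 1 fit gave 4 for HS and TN. With 1 cow left out the counts ran from 0 to 39 in HS against TN, 5 to 10 in HS against PF, 0 to 14 in PF against TN, and 2 to 47 for the 3 groups, each highest without TN replicate 2 except for HS and PF (without PF replicate 3). Of the 67 pathway genes, DESeq2 called 3 in HS against TN and 4 in HS against PF, and no filter called 2 for HS and PF (*ACMSD* and *GLDC*). The cause was not tested.

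Deviations of same-numbered cows from their group means correlated at -0.22 to 0.24. With so few cows, these values cannot show whether the replicate numbers pair the cows. With the replicate block, 33 genes were called for HS and TN, 1 for PF and TN, and 1 pathway gene for HS and TN (*CSAD*). Reversed under the replicate block were *TAT* (-0.0098) and *PRODH* (-0.19) for HS over TN, *HGD* (-0.062) for HS over PF, and *FAH* (-0.011) and *SDS* (-0.052) for PF over TN. *FAH* for PF over TN was -0.0028 without mitochondrial genes.

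With 1 cow left out, log2 fold changes of HS over TN ran from -0.32 to 0.34 for *TAT*, -0.14 to 0.66 for *HGD*, -0.39 to 0.024 for *FAH*, -0.29 to 0.19 for *TDO2*, -0.87 to 0.24 for *GPT* and -0.85 to 0.62 for *PRODH*. Those of HS over PF ran from -0.10 to 0.34 for *HPD*, -0.45 to 0.34 for *HGD*, -0.39 to 0.018 for *FAH*, -0.10 to 0.35 for *TDO2*, -0.12 to 0.49 for *GPT*, -0.21 to 1.23 for *PRODH* and -1.83 to 0.49 for *CSAD*. Those of PF over TN ran from -0.14 to 0.080 for *FAH*, -0.38 to 0.033 for *TDO2* and -0.51 to 0.31 for *SDS*. Read depth was lowest for *GPT* among the enzymes, at 26 to 135 counts per library.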
